A study of Mus musculus with 15 samples.

Results

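The Notch pathway genes described here are 2 receptors (Notch1 and Notch4), 4 ligands (Dll1, Dll4, Jag1 and Jag2) and 4 target genes (Hey1, Hey2, Heyl and Hes1). They were taken by name, 10 of the 21173 genes with a probe on the arrays, and were matched to 11 of 55681 probes, 2 of them for Notch1. RNA was measured on 15 one-colour arrays, 3 for each of 5 populations of endothelial cells sorted from mouse liver. EC-SP and EC-MP came from mice 8 weeks old and are named in the labels only as SP and MP, abbreviations taken here to mean the side population and main population of a dye efflux sort. The other populations were sorted by the surface proteins CD157 (encoded by Bst1) and CD200 from adult liver: CD157+CD200+, CD157-CD200+ and CD157-CD200- cells. The labels give no strain, sex, gate or number of animals for any group and no age in weeks for the 3 subsets, and the series text says only that 3 independent samples were collected. The p-values therefore measure the spread between these samples, whose source is not described further.

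Notch receptors sit on the cell surface and are switched on by ligands of the Delta-like and Jagged families on a neighbouring cell. Binding lets the ADAM and gamma-secretase proteases cut the receptor, and its freed intracellular part joins the DNA-binding protein Rbpj in the nucleus and turns on genes of the Hes and Hey families, which encode transcriptional repressors. In blood vessels the pathway is known for arterial identity and for tip and stalk cell choice in sprouting, where Dll4 and Jag1 are the best known endothelial ligands. In the liver, Jag1 is also known for its part in bile duct formation.

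Promoter sequences are shown for the ligands called in 3 of the comparisons (Jag1 and Jag2), for Dll4, which differed among the populations in another order, and for Hey2, the one matched member with a core Rbpj motif. They are RefSeq windows on GRCm38.p6, from 250 bases before to 50 bases after the annotated start, written 5′ to 3′ on the strand of the gene. Capitals mark TGGGAA, the core of the Rbpj motif, on either strand in Hey2, and GGAA, the core of the ETS factor motif, on either strand in Jag1 and Dll4. The Jag2 window has neither motif.
Jag1, chr2:137116471-137116770, minus strand: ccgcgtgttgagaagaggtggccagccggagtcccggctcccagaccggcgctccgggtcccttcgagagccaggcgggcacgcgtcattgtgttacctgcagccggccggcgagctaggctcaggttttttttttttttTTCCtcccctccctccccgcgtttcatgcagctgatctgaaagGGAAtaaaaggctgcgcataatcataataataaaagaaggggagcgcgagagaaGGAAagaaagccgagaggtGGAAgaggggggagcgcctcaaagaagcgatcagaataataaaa
Jag2, chr12:112929446-112929745, minus strand: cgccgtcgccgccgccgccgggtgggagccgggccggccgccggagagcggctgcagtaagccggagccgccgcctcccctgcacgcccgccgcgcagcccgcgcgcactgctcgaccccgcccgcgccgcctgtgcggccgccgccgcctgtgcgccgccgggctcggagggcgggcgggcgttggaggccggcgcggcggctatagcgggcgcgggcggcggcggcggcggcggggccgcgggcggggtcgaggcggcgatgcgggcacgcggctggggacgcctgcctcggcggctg
Dll4, chr2:119325534-119325833, plus strand: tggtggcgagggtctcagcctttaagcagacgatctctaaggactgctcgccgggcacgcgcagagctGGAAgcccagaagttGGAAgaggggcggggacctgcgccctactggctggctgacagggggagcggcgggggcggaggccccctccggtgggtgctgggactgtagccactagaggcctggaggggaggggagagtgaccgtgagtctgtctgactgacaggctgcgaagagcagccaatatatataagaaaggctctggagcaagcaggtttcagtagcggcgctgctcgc
Hey2, chr10:30842734-30843033, minus strand: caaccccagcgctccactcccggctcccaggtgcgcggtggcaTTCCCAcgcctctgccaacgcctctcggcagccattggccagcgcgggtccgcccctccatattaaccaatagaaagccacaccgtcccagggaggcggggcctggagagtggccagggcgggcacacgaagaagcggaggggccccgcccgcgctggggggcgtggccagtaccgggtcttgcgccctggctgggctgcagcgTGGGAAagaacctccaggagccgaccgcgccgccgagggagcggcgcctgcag
Windows were matched for 7 of the 10 members, 8 windows in all because Dll1 has 2; Hey1, Heyl and Hes1 had no entry. The Rbpj core was found in 1 of the 8 windows (Hey2, at 207 bases before the start on the minus strand of the window and 3 bases before it on the plus strand), and 25.6% of all 32851 windows of this length hold it. The E-box CACGTG, a motif bound by Hey proteins, was in 0 of the 8 windows and in 7.15% of all windows. GGAA, which is also contained in TGGGAA, was in 7 of the 8 windows and in 96% of all windows, with 4 copies in Jag1, 2 in Dll4 and 0 in Jag2. These letters describe the windows and do not locate binding. The motifs were chosen with the expression results known, and the ETS core was added after the first 2 had been counted.

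Pecam1 and Cdh5, 2 adhesion genes of endothelial junctions, were well above background on all 15 arrays. This does not exclude other cell types, whose markers are described further below. Bst1 followed the gates: its level was 2.57 ± 0.17 in CD157+CD200+ cells, -2.41 ± 0.26 in CD157-CD200+ cells and -3.17 ± 0.45 in CD157-CD200- cells (SD, n = 3 each). Cd200 was 4.42 ± 0.09 in CD157+CD200+ cells, 3.37 ± 0.07 in CD157-CD200+ cells and, not well above background, -4.42 ± 0.15 in CD157-CD200- cells (SD, n = 3 each). A level is the log2 of the spot's processed signal minus the log2 of the array's 75th percentile, so 0 is the 75th percentile of the array, and levels are compared between populations but not between genes. The share of spots well above background was 57.3% to 69.4% per array, no spot was saturated, and the number of arrays limits the precision. EC-SP and EC-MP were read on another scanner than the subsets, so levels of the 2 sorts cannot be set side by side and only differences within a sort are compared.

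In EC-SP cells, 5 of the 8 tested members were higher than in EC-MP cells and 0 were lower. Of all 23973 features, 16.5% were called in either direction, 9.10% higher and 7.44% lower. The 5 were the receptor gene Notch4, the ligand genes Dll4, Jag1 and Jag2 and the target gene Hey1. Calls were made in a limma fit over all features at an adjusted p (Benjamini-Hochberg) under 0.05, and a gene was tested if at least 1 group had its probe well above background on each of its 3 arrays. With all arrays, Hey2 and Heyl did not pass that filter in any comparison. Jag2, well above background on no EC-MP array, passed the filter only through EC-SP cells, where it was high. It is part of the count and of the median. With probes required to be well above background on every array, Jag2 was not tested. Then 4 of 7 members were called, all higher, and 3497 features. The share of features called under this filter is not given here, so the count of 4 is not read against it. The median log2 difference of the 8 tested members was 1.27, beside -0.0053 over all features tested.

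Of the same 8 members, 3 were higher in CD157+CD200+ cells than in CD157-CD200- cells (Jag1, Jag2 and Hey1) and 0 were lower, where 15.2% of 23703 features were called (8.09% higher and 7.11% lower). Arrays with the same replicate number also shared a slide and a scan, and with that number as a block 6 members passed the test, 4 higher and 2 lower, while the share of all features called grew to 29.3%. For EC-SP minus EC-MP the block called 4 members, all higher, with 21.9% of features called. Against CD157-CD200- cells, CD157-CD200+ cells differed in 6 members, beside 11.8% of features (6.31% higher and 5.54% lower): Jag1, Jag2 and Hey1 were higher, and Notch4, Dll4 and Hes1 were lower. With the block 7 members were called there, 4 higher and 3 lower, with 22.3% of features called. Between CD157+CD200+ and CD157-CD200+ cells 0 members were called by limma, with 1.05% of features called (0.802% higher and 0.245% lower), and Dll4 and Jag1 had an unadjusted p under 0.05. The replicate block called 1, Dll4, with 3.07% of features called. The median log2 difference of the members was 0.71 for CD157+CD200+ minus CD157-CD200-, -0.036 for CD157+CD200+ minus CD157-CD200+ and 0.81 for CD157-CD200+ minus CD157-CD200-, where the medians of all features were 0.0053, -0.0084 and 0.020. Jag2 passed the filter only through the CD200+ subsets, where it was high. With probes required to be well above background on every array, it was not tested. Then 3 of 7 members were called for CD157+CD200+ minus CD157-CD200- (2 higher and 1 lower, with 2842 features). For CD157-CD200+ minus CD157-CD200- it was 5 of 7 (2 higher and 3 lower, with 2197 features). The shares of features called under this filter are not given here, so these counts are not read against them. The comparisons of the subsets share arrays, so their calls are not independent of each other.

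**Figure D1:**
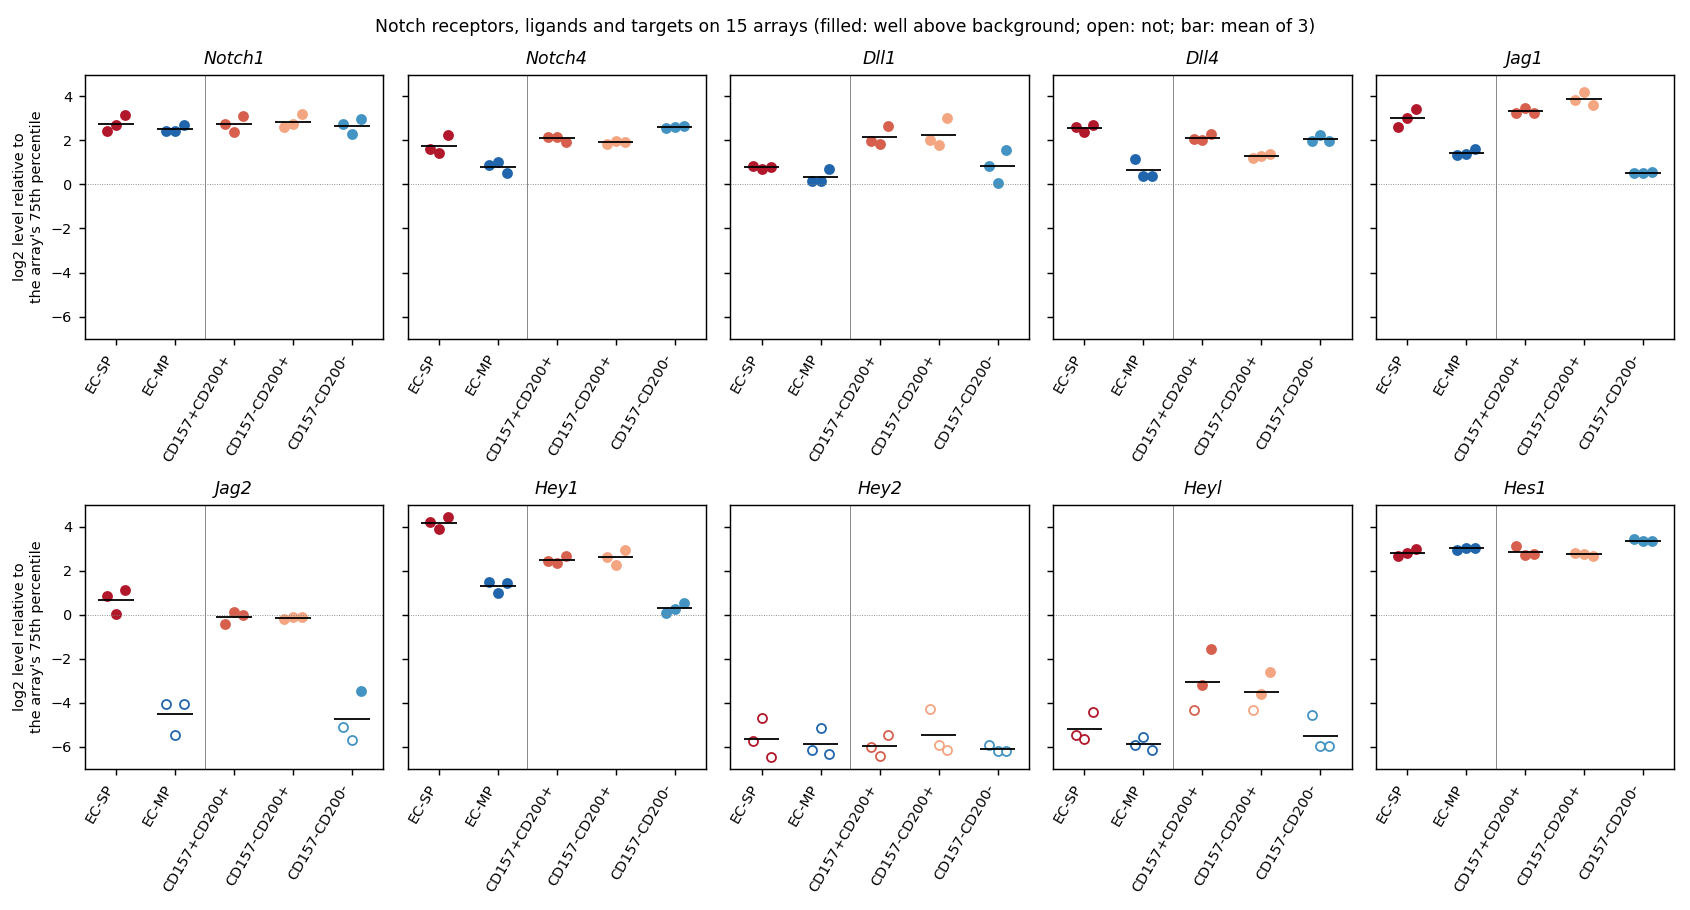
Level of each of the 10 members on all 15 arrays (y axis: log2 signal relative to the array's 75th percentile; x axis: the 5 populations, with a line between the 2 sorts). Points are arrays, filled where the probe was well above background, and bars are means of 3: Jag1, Jag2 and Hey1 stand higher in EC-SP than in EC-MP and higher in both CD200+ subsets than in CD157-CD200- cells, while all Hey2 points are open.

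Notch1, the widely expressed receptor, did not differ by test between populations. Its brighter probe gave 2.44, 2.70 and 3.15 on the EC-SP arrays and 2.42, 2.44 and 2.69 on the EC-MP arrays. In the subsets it gave 2.74, 2.36 and 3.10 in CD157+CD200+ cells, 2.60, 2.75 and 3.20 in CD157-CD200+ cells and 2.74, 2.30 and 2.97 in CD157-CD200- cells. The groups overlapped in every comparison, no difference was called, and the largest was 0.25 ± 0.25 on the log2 scale (SE, EC-SP minus EC-MP, adjusted p = 0.575). The dimmer probe of the gene differed by 0.38 in that comparison, and it gave 0.22 for CD157+CD200+ minus CD157-CD200+, where the brighter probe gave -0.12.

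Notch4, a receptor gene largely restricted to endothelium, moved in opposite directions in the 2 sorts. It was at 1.61, 1.42 and 2.24 in EC-SP cells and at 0.88, 1.00 and 0.53 in EC-MP cells. The EC-SP arrays all lay above the EC-MP arrays, by 0.96 ± 0.28 on the log2 scale (SE, adjusted p = 0.045). The call ended with the replicate number as a block (adjusted p = 0.067), in the authors' deposited table (adjusted p = 0.086) and without any 1 of the 6 arrays (adjusted p between 0.054 and 0.124). In the subsets Notch4 was at 2.18, 2.17 and 1.94 in CD157+CD200+ cells, 1.83, 1.96 and 1.94 in CD157-CD200+ cells and 2.57, 2.62 and 2.67 in CD157-CD200- cells, so that CD157-CD200- cells were the highest without overlap. It was lower in CD157-CD200+ cells than in CD157-CD200- cells by a log2 difference of -0.71 ± 0.16 (SE, adjusted p = 0.015), and this call ended without CD157-CD200+ replicate 1 (adjusted p = 0.073). The difference of CD157+CD200+ from CD157-CD200- cells was -0.52 ± 0.16 (SE) and missed the threshold (adjusted p = 0.052), although the replicate block called it (adjusted p = 0.014).

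The ligand gene Jag2 was at or near background in the low population of 3 of the comparisons. It was at 0.84, 0.02 and 1.12 in EC-SP cells, and at -4.05, -5.47 and -4.03 in EC-MP cells, where none of the 3 arrays had its probe well above background. On the processed signal, Jag2 was therefore at least 23.0-fold higher in EC-SP cells. This bound was taken against, on each EC-MP array, the higher of the lowest signal well above background and the probe's own signal. An adjusted p of 0.000153 belongs to the fitted difference, computed with the background signals. In the subsets Jag2 was at -0.42, 0.11 and -0.00 in CD157+CD200+ cells, -0.20, -0.10 and -0.11 in CD157-CD200+ cells and -5.10, -5.67 and -3.45 in CD157-CD200- cells. Of the CD157-CD200- arrays only replicate 3 was well above background there, and all CD200+ arrays lay far above it. The fitted log2 difference from CD157-CD200- cells was 4.64 ± 0.47 for CD157+CD200+ cells (SE, adjusted p = 0.000106) and 4.61 ± 0.47 for CD157-CD200+ cells (SE, adjusted p = 0.000146). On slide 3, where the CD157-CD200- array was above background, these differences were 3.45 and 3.34. The fitted sizes rest on signals at background and changed with the background correction: with normexp the log2 difference was 2.61 for EC-SP minus EC-MP (adjusted p = 5.66e-05), 1.70 for CD157+CD200+ minus CD157-CD200- (adjusted p = 8.22e-06) and 1.69 for CD157-CD200+ minus CD157-CD200- (adjusted p = 1.17e-05), so the calls were kept at smaller sizes.

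Jag1, the other Jagged ligand gene, followed the same order of high and low populations from a level that was measured on every array. It was at 2.62, 3.04 and 3.43 in EC-SP cells, against 1.36, 1.37 and 1.62 in EC-MP cells. The arrays did not overlap, and the log2 difference was 1.58 ± 0.26 (SE, adjusted p = 0.0038), a 2.99-fold difference. In the subsets Jag1 was at 3.25, 3.47 and 3.26 in CD157+CD200+ cells, 3.83, 4.20 and 3.60 in CD157-CD200+ cells and 0.51, 0.53 and 0.56 in CD157-CD200- cells. It was 6.94-fold higher in CD157+CD200+ than in CD157-CD200- cells (log2 difference 2.79 ± 0.19, SE, adjusted p = 7.77e-06). CD157-CD200+ cells were 10.1-fold above CD157-CD200- cells (log2 difference 3.34 ± 0.19, SE, adjusted p = 3.31e-06). All 3 CD157+CD200+ arrays lay below the CD157-CD200+ arrays, but that difference of -0.55 ± 0.19 (SE) missed the threshold (adjusted p = 0.369).

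Dll4, the Delta-like ligand gene known from arterial and tip cells, was higher in EC-SP cells and had another pattern in the subsets. Its levels were 2.63, 2.36 and 2.69 in EC-SP cells and 1.17, 0.40 and 0.40 in EC-MP cells. The arrays did not overlap and the difference was 3.74-fold (log2 difference 1.90 ± 0.27, SE, adjusted p = 0.00184). In the subsets it was at 2.05, 2.03 and 2.27 in CD157+CD200+ cells, 1.19, 1.29 and 1.36 in CD157-CD200+ cells and 1.96, 2.25 and 1.99 in CD157-CD200- cells. The lowest subset was thus CD157-CD200+, without overlap with either other subset. It was lower there than in CD157-CD200- cells by a log2 difference of -0.79 ± 0.17 (SE, adjusted p = 0.0127), a call that ended without CD157-CD200+ replicate 1 (adjusted p = 0.063). CD157+CD200+ minus CD157-CD200+ was 0.84 ± 0.17 (SE) and missed the threshold (adjusted p = 0.056), which it passed with the replicate block (adjusted p = 0.020). CD157+CD200+ and CD157-CD200- cells differed by 0.05 ± 0.17 (SE, adjusted p = 0.915).

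Dll1, a Delta-like ligand gene, did not pass the test in any of the 4 comparisons, although both CD200+ subsets stood above CD157-CD200- cells. It was at 0.84, 0.72 and 0.81 in EC-SP cells and at 0.17, 0.14 and 0.72 in EC-MP cells, a log2 difference of 0.44 ± 0.24 (SE, adjusted p = 0.25). In the subsets it was at 1.98, 1.83 and 2.67 in CD157+CD200+ cells, 2.01, 1.77 and 3.01 in CD157-CD200+ cells and 0.83, 0.07 and 1.56 in CD157-CD200- cells. The CD200+ arrays did not overlap with the CD157-CD200- arrays, and the slide with replicate 3 was the highest in each subset. The log2 difference from CD157-CD200- cells was 1.34 ± 0.43 for CD157+CD200+ cells (SE, adjusted p = 0.069) and 1.44 ± 0.43 for CD157-CD200+ cells (SE, adjusted p = 0.064). With the replicate number as a block the adjusted p was 0.00123 for CD157+CD200+ cells and 0.00109 for CD157-CD200+ cells, and with all 15 arrays in 1 fit it was 0.029 and 0.023.

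Of the target genes, Hey1 was called in the same 3 comparisons as Jag1 and Jag2. Hey1 was at 4.22, 3.88 and 4.45 in EC-SP cells and 1.49, 0.99 and 1.43 in EC-MP cells. It was 7.35-fold higher in EC-SP cells (log2 difference 2.88 ± 0.25, SE, adjusted p = 0.000175). In the subsets it was at 2.45, 2.35 and 2.66 in CD157+CD200+ cells, 2.63, 2.26 and 2.92 in CD157-CD200+ cells and 0.10, 0.28 and 0.54 in CD157-CD200- cells. The CD200+ arrays lay above all CD157-CD200- arrays and overlapped each other. The fold against CD157-CD200- cells was 4.55 in CD157+CD200+ cells (log2 difference 2.19 ± 0.22, SE, adjusted p = 9.29e-05) and 4.93 in CD157-CD200+ cells (log2 difference 2.30 ± 0.22, SE, adjusted p = 8.78e-05).

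Hes1, the other target gene that passed the filter, did not follow Hey1. It was at 2.64, 2.80 and 2.98 in EC-SP cells and 2.96, 3.04 and 3.03 in EC-MP cells, a log2 difference of -0.20 ± 0.21 (SE, adjusted p = 0.588). In the subsets it was at 3.10, 2.70 and 2.75 in CD157+CD200+ cells, 2.81, 2.78 and 2.68 in CD157-CD200+ cells and 3.43, 3.34 and 3.33 in CD157-CD200- cells, the highest subset without overlap. It was lower in CD157-CD200+ than in CD157-CD200- cells by a log2 difference of -0.61 ± 0.17 (SE, adjusted p = 0.047). This call lay close to the threshold: it ended without any 1 of the 9 arrays (adjusted p between 0.0501 and 0.15), with quantile normalization (adjusted p = 0.070), with the array median (adjusted p = 0.058), in the authors' deposited table (adjusted p = 0.055), without the filter on dim probes (adjusted p = 0.107) and with each probe without a gene symbol kept as a feature of its own (adjusted p = 0.056). For CD157+CD200+ cells the difference was -0.51 ± 0.17 (SE, adjusted p = 0.074), called only with the replicate block (adjusted p = 0.015) and with normexp background correction (adjusted p = 0.022).

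Hey2 and Heyl, the remaining Hey family genes, were dim. Hey2 was not well above background on any of the 15 arrays. Heyl was well above background on 2 of the 3 CD157+CD200+ arrays, on 2 of the 3 CD157-CD200+ arrays and on none of the others. Its levels were -4.34, -3.20 and -1.57 in CD157+CD200+ cells, -4.34, -3.58 and -2.59 in CD157-CD200+ cells and -4.58, -5.98 and -5.97 in CD157-CD200- cells. Replicate 3 was the highest array of both CD200+ subsets, and with all arrays the gene was not tested because it did not pass the filter. Replicate 1 of all 3 subsets was not above background. With replicate 1 of CD157+CD200+ or of CD157-CD200+ cells left out, 9 members were tested, Heyl being added. In each of those fits 4 members were called higher in CD157+CD200+ than in CD157-CD200- cells, with Heyl as the added call. Heyl passed the filter there only because a dim array had been left out, and only through a CD200+ subset, where it was higher. Its call and the count of 4 are therefore not independent of that filter. The fit without CD157+CD200+ replicate 1 called 2647 features and that without CD157-CD200+ replicate 1 called 3164, beside 3602 with all arrays.

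**Figure D2:**
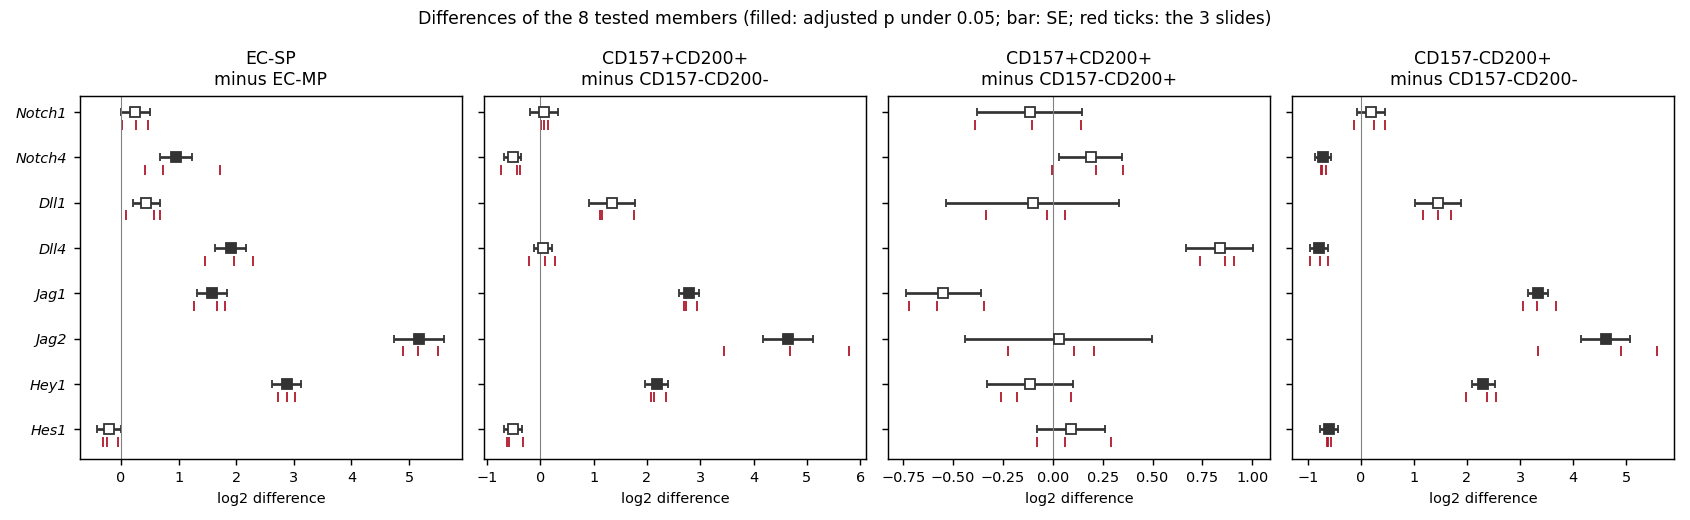
Log2 difference of the 8 tested members in the 4 comparisons (x axes differ between panels). Squares are fitted differences with SE bars, filled at an adjusted p under 0.05, and red ticks are the 3 differences between arrays of the same slide: Jag1, Jag2 and Hey1 are filled in 3 panels and 0 squares are filled for CD157+CD200+ minus CD157-CD200+.

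Across the 3 subsets, limma's moderated F test found a difference for 5 of the 8 tested members, against 13.9% of features: Notch4, Dll4, Jag1, Jag2 and Hey1. With the replicate block 7 of the 8 were called, Dll1 (adjusted p = 0.00141) and Hes1 (adjusted p = 0.0142) being added, against 26.8% of features. A further contrast asked whether the upper step of the sort (CD157+CD200+ minus CD157-CD200+) differed from the lower step (CD157-CD200+ minus CD157-CD200-), and 4 members were called, against 4.18% of features (1.87% more positive and 2.31% more negative). The upper step was smaller for Jag1 (by -3.89 ± 0.33 on the log2 scale, SE, adjusted p = 0.000185), for Jag2 (-4.58 ± 0.81, SE, adjusted p = 0.0128) and for Hey1 (-2.42 ± 0.37, SE, adjusted p = 0.00606). For Dll4 it was larger (1.62 ± 0.29, SE, adjusted p = 0.013), the upper step being positive and the lower one negative. The replicate block called 6 members, adding Notch4 (0.90, adjusted p = 0.034) and Dll1 (-1.54, adjusted p = 0.018), against 9.40% of features. With normexp the Jag2 value was -1.68 (adjusted p = 0.0019). The Jag2 call ended without any 1 of the CD157-CD200+ arrays (adjusted p between 0.055 and 0.063), and the Dll4 call without CD157-CD200+ replicate 1 (adjusted p = 0.088) or 2 (adjusted p = 0.062). The F test's Notch4 call ended without any 1 of 7 of the 9 arrays (adjusted p up to 0.093) and its Dll4 call without CD157-CD200+ replicate 1 (adjusted p = 0.064).

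The difference between EC-SP and EC-MP was set against that between CD157+CD200+ and CD157-CD200- cells in 1 fit of all 15 arrays, in which 5.05% of features were called (2.07% more positive in the dye efflux sort and 2.97% more negative). Among the members, 3 of 8 were called. Notch4 was more positive in the dye efflux sort by 1.48 ± 0.30 on the log2 scale (SE, adjusted p = 0.0113) and Dll4 by 1.85 ± 0.31 (SE, adjusted p = 0.00233). For Jag1 the value was -1.22 ± 0.31 (SE, adjusted p = 0.0366), and it ended as a call without any 1 of 12 of the 15 arrays (adjusted p up to 0.090). With the replicate block 5 members were called, Dll1 (-0.90, adjusted p = 0.042) and Hey1 (0.69, adjusted p = 0.043) being the 2 added, with 12.7% of features called. Each difference was taken within 1 scanner and software version, and the sort cannot be told apart from these.

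**Figure D3:**
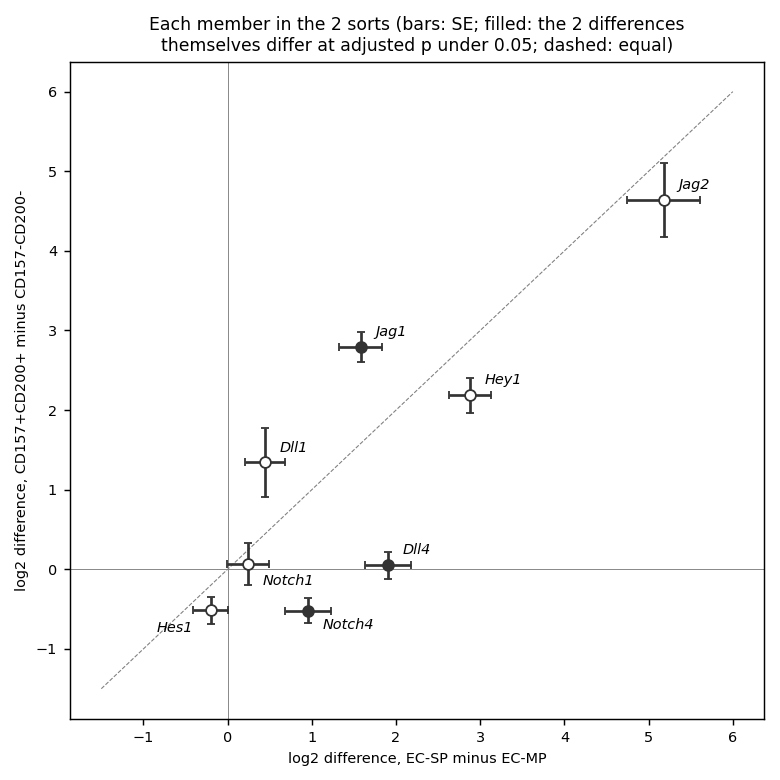
Log2 difference between EC-SP and EC-MP (x axis) and between CD157+CD200+ and CD157-CD200- cells (y axis) for the 8 tested members, with SE bars. Filled points are those whose 2 differences themselves differ at an adjusted p under 0.05 (Notch4, Dll4 and Jag1); Notch4 and Dll4 lie below the dashed line of equal differences and Jag1 above it.

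Beyond the 10 members, 58 other genes of the pathway were listed, of which 54 were tested in each fit. In EC-SP cells 5 were higher and 1 was lower than in EC-MP cells, a share below the 16.5% of all features, with a median log2 difference of -0.032. The receptor genes Notch2 (0.92 ± 0.23, SE, adjusted p = 0.027) and Notch3 were among those higher. Notch3 is given as at least 2.11-fold higher because it was not well above background on any EC-MP array (adjusted p of the fitted difference = 0.0125). The Notch3 call ended with normexp (log2 difference 0.42, adjusted p = 0.110). Notch3 passed the filter only through EC-SP cells, where it was high. Its adjusted p and its place in the count of 5 are therefore not independent of that filter. Mfng, which adds sugars to Notch, was higher by 1.42 ± 0.22 (SE, adjusted p = 0.00269), Furin, a protease that matures the receptor, by 1.16 ± 0.29 (SE, adjusted p = 0.0273) and Rbpj by 0.86 ± 0.21 (SE, adjusted p = 0.0218). Numb, an inhibitor of Notch, was lower by -1.06 ± 0.24 (SE, adjusted p = 0.0173). The calls of Notch2, Furin, Numb and Rbpj ended without 1 or another array, where the adjusted p reached 0.107 for Notch2, 0.091 for Furin, 0.066 for Numb and 0.072 for Rbpj, and that of Notch3 without EC-SP replicate 1 (adjusted p = 0.0502).

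In CD157+CD200+ cells 6 of the 54 were higher and 3 lower than in CD157-CD200- cells, a share near the 15.2% of all features, with a median log2 difference of 0.047. Notch3 differed by 3.05 ± 0.45 (SE, adjusted p = 0.00131) and by 1.28 with normexp (adjusted p = 0.000297), and 1 of the 3 CD157-CD200- arrays had it well above background. In the subsets Notch3 thus passed the filter only through CD200+ cells, where it was high, and its calls are not independent of that filter. The gamma-secretase subunit gene Aph1b was higher by 1.20 ± 0.18 (SE), and Dtx3, of the Deltex ubiquitin ligase family, by 1.28 ± 0.24 (SE). Dtx1, another Deltex gene, was at least 3.20-fold higher than in CD157-CD200- cells and at least 3.55-fold higher than in CD157-CD200+ cells (adjusted p of the fitted difference 0.00144 and 0.0134). With normexp the Dtx1 difference was 0.52 from CD157-CD200- cells (adjusted p = 0.018) and 0.55 from CD157-CD200+ cells, where the call ended (adjusted p = 0.073); that call also ended without any 1 of 5 of the arrays (adjusted p up to 0.075). Dtx1 was the 1 pathway gene of 54 called between CD157+CD200+ and CD157-CD200+ cells, where 1.05% of all features were called. The median of the 54 genes there was -0.0030. Dtx1 passed the filter only through CD157+CD200+ cells, where it was high, as its probe was at or near background in both other subsets. Its adjusted p and the count of 1 are therefore not independent of that filter. Numb (-1.10 ± 0.18, SE), the histone deacetylase gene Hdac1 (-1.06 ± 0.17, SE) and the coactivator gene Maml3 (-0.86 ± 0.18, SE) were lower than in CD157-CD200- cells.

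CD157-CD200+ cells had 4 pathway genes higher, among them Notch3, Aph1b and Neurl3, and 2 lower (Maml3 and Hdac1) than CD157-CD200- cells, a share near the 11.8% of all features, with a median log2 difference of -0.040. Notch3 differed by 3.48 ± 0.45 (SE, adjusted p = 0.000706), with 1 of 3 CD157-CD200- arrays well above background, and by 1.56 with normexp (adjusted p = 9.31e-05). Neurl3, of the Neuralized family, differed by 0.71 ± 0.17 (SE, adjusted p = 0.0216), a call that ended without 1 or another array (adjusted p up to 0.083). Notch2 was called in no subset comparison. In each comparison the medians of the 54 genes lay within 0.1 of the medians of all features.

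**Figure D4:**
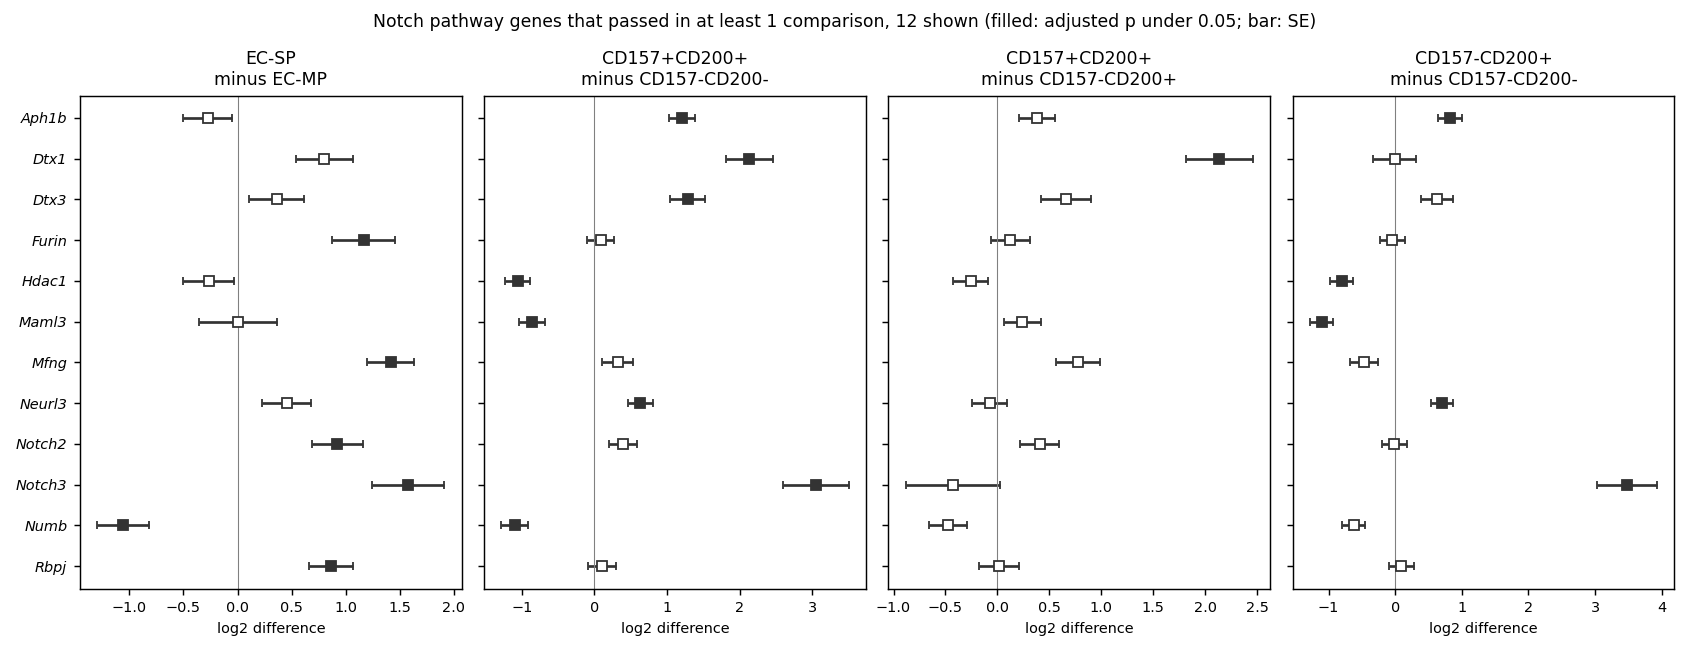
Log2 difference with SE bars of 12 other Notch pathway genes, each called in at least 1 of the 4 comparisons (x axes differ between panels; filled at an adjusted p under 0.05). Notch3 is filled in 3 panels and Dtx1 is the 1 gene filled for CD157+CD200+ minus CD157-CD200+; fitted values of Notch3 and Dtx1 use signals at background in the low group.

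Of 6 genes of arterial vessels known to be linked to Notch, 4 were higher in EC-SP than in EC-MP cells and 2 were lower, with a median of 1.76. Of all features, 9.10% were higher and 7.44% lower, with a median of -0.0053. The transcription factor gene Sox17 was higher by 2.19 ± 0.22 (SE, adjusted p = 0.0003), Unc5b, a netrin receptor gene, by 1.76 ± 0.28, Efnb2, an ephrin gene of arteries, by 1.75 ± 0.28 and the connexin gene Gja5 by 1.80 ± 0.39 (SE). Gja4, another connexin gene (-1.59 ± 0.24, SE), and the receptor gene Nrp1 (-0.76 ± 0.22, SE) were lower. In the subsets Gja5 differed by 5.95 ± 0.18 for CD157+CD200+ cells (SE, adjusted p = 1.31e-07) and by 6.10 ± 0.18 for CD157-CD200+ cells (SE, adjusted p = 1.32e-07) against CD157-CD200- cells. Unc5b was higher in the same comparisons, by 0.97 ± 0.19 and 1.15 ± 0.19 (SE), while Gja4 (-1.24 ± 0.27, SE) and Nrp1 (-1.15 ± 0.21, SE) were lower in CD157+CD200+ than in CD157-CD200- cells. Against CD157-CD200- cells, 2 of the 6 were thus higher and 2 lower in CD157+CD200+ cells, and 2 higher and 0 lower in CD157-CD200+ cells. Sox17 and Efnb2 were called in neither comparison. The list's median was 0.68 for CD157+CD200+ and 0.21 for CD157-CD200+ against CD157-CD200- cells, and 0 of the 6 were called between the CD200+ subsets, where the median was -0.17. In the same order, the medians of all features were 0.0053, 0.020 and -0.0084, and the shares called were 15.2%, 11.8% and 1.05%.

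Several marker lists of non-endothelial cells changed alongside the Notch genes, and their part in the results was not tested; in sorted samples, fewer cells of a type and less RNA per cell cannot be told apart. Of 11 tested bile duct markers, 8 were higher in EC-SP than in EC-MP cells and 0 lower, and their summed linear level was 14.7 to 19.2 in EC-SP cells against 5.66 to 6.15 in EC-MP cells (in units of the array's 75th percentile). Krt19 was well above background on all 6 arrays, while Cftr was not well above background on any of these arrays. No bile duct marker was called in the 3 subset comparisons, where the sums were 7.74 to 10.6 in CD157+CD200+ cells, 4.55 to 6.97 in CD157-CD200+ cells and 5.95 to 7.59 in CD157-CD200- cells. The marker counts here and below stand beside the shares of all features called. These were 16.5% (EC-SP minus EC-MP), 15.2% (CD157+CD200+ minus CD157-CD200-), 11.8% (CD157-CD200+ minus CD157-CD200-) and 1.05% (CD157+CD200+ minus CD157-CD200+).

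Some markers of smooth muscle cells and pericytes, a list that includes Notch3, were called in both sorts. In EC-SP cells 3 of 9 tested were higher than in EC-MP cells (Rgs5 by a log2 difference of 3.75, Mylk by 2.00, and Notch3), with sums of 14.0 to 19.0 in EC-SP cells and 6.71 to 7.47 in EC-MP cells. Notch3 passed the filter there only through EC-SP cells, where it was high, so the count of 3 is not independent of that filter. The other markers were not called. Of these, Cspg4 (-0.68 ± 0.26, SE, adjusted p = 0.114, without overlap) and Cnn1 (-0.18) were lower in EC-SP cells. Des (1.24), Acta2 (0.62), Myh11 (0.35) and Tagln (0.06) were higher. Against CD157-CD200- cells, 4 of 10 were higher in CD157+CD200+ cells and 5 of 10 in CD157-CD200+ cells. Besides Notch3 these were Rgs5, a pericyte gene (log2 difference 3.84 for CD157+CD200+ cells and 3.78 for CD157-CD200+ cells), the PDGF receptor gene Pdgfrb, which is also on the stellate cell list (4.79 and 4.02), the myosin kinase gene Mylk (2.28 and 1.53) and, in CD157-CD200+ cells, Acta2. Pdgfrb was well above background on 2 of the 3 CD157-CD200- arrays. Pdgfrb and Notch3 therefore passed the filter only through CD200+ cells, where they were high. The sums were 24.6 to 32.6 in CD157+CD200+ cells, 24.2 to 41.3 in CD157-CD200+ cells and 6.80 to 9.77 in CD157-CD200- cells. These are the comparisons in which Jag1, Jag2 and Hey1 were called. The contractile genes Tagln, Myh11 and Cnn1 were not called in any of them, and Acta2 was called in CD157-CD200+ minus CD157-CD200- (1.28, adjusted p = 0.013).

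Hepatocyte and Kupffer cell markers moved the other way in the subsets. Of 8 tested hepatocyte markers, 7 were lower in CD157+CD200+ and 8 in CD157-CD200+ cells than in CD157-CD200- cells, with sums of 9.66 to 12.2 in CD157+CD200+ cells, 7.97 to 10.2 in CD157-CD200+ cells and 23.9 to 40.9 in CD157-CD200- cells. Of 9 Kupffer cell markers, 5 and 4 were lower in these comparisons, with sums of 27.7 to 30.9 in CD157+CD200+ cells, 26.8 to 36.4 in CD157-CD200+ cells and 38.7 to 51.7 in CD157-CD200- cells. Sums add linear levels of different probes, so the brightest probes weigh most in them. Csf1r, a Kupffer list gene called in no comparison, was at 4.69 (log2) in EC-SP and 4.55 in EC-MP cells. C1qa was at -2.96 and -1.83 there. Between EC-SP and EC-MP cells 3 hepatocyte markers were higher and 2 lower, and 3 of 7 Kupffer cell markers were lower. Stellate cell and fibroblast markers were called in both directions against CD157-CD200- cells (2 of 8 higher and 3 lower for CD157+CD200+, 1 higher and 3 lower for CD157-CD200+) and 3 of 8 were lower in EC-SP cells, and 0 of 4 tested lymphocyte markers were called in any comparison. Of the 8 endothelial markers, 1 was called between EC-SP and EC-MP (Tek, lower), and 3 in each comparison with CD157-CD200- cells (Pecam1 higher, Cldn5 and Kdr lower).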

How the data were processed

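Cy3 intensity of each spot was read from the scanner files the authors deposited: linear, background-subtracted processed signal (per the file headers) from Agilent Feature Extraction (named in the submitters' processing notes; version 10.10.1.1 for EC-SP and EC-MP and 11.5.1.1 for the subsets, per the file headers). RNA was amplified before labelling, per the labels. In the table the authors deposited, each array's intensity is multiplied by a constant (5.46 to 10.1) without centring, on a basis not stated in any source used. Column medians of that table were 256.5, 299.6 and 286.1 (EC-SP), 299.5, 331.2 and 335.4 (EC-MP), 255.8, 278.4 and 252.3 (CD157+CD200+), 265.0, 293.0 and 262.8 (CD157-CD200+) and 218.3, 296.6 and 238.5 (CD157-CD200-).

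Control spots were dropped, outlier spots set to missing (110 to 213 of 59305 per array), and log2 signal was centred on the array's 75th percentile. Of 55681 probes, 28059 were given symbols of 21173 genes through RefSeq accessions and the files' 4 annotation revisions. Each gene was represented by its tested probe of highest mean, and probes without a symbol were collapsed by their systematic name. A first run kept those probes apart; the collapsed form was chosen after its results were seen, and the other is reported as an alternative. Fitting used R 4.3.3 and limma 3.58.1 (two-sided; SE of the fitted difference, n = 3 per group), separately for the 6 and the 9 arrays; numpy 2.4.6, pandas 2.3.3 and Python 3.11.15 did the rest. The script was tested on simulated data. Bounds on folds used, for each dim array, whichever was higher, the probe's signal or the lowest well-above-background signal. They hold for the processed signal and not for normexp, where differences of dim genes were smaller.

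The labels number replicates 1 to 3 without a meaning. Each number in a sort was also 1 slide and 1 scan holding every group of the sort. After group means were removed, same-numbered arrays correlated at r of 0.27 to 0.33 (3 pairs, EC-SP and EC-MP) and 0.27 to 0.63 (9 pairs, subsets), so the numbers were taken to pair the arrays. Calls not said to use the block come from the fit without it, which ignores this pairing. For the members, the fit with the numbers as a block is given beside results it changes.

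The members, gene lists, tests and motifs were chosen with earlier results of these data known. All members, Notch2, Notch3 and the sort checks are named, and of each other pathway or arterial list up to 4 called genes a comparison with the lowest adjusted p; some genes the rule names are not reported here, and marker genes named beside their lists were chosen after their values were seen. Alternatives were normexp with an offset of 50 (on median spot signals in place of mean signals, which were not used here), quantile and array-median scaling, the deposited table, 2 other filters, the mean over probes, the block, 1 fit of all arrays, and leaving out each array.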

Additional observations from a re-analysis of the deposited data

Results flagged for a closer look

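In 3 members the difference between EC-SP and EC-MP cells differed from that between CD157+CD200+ and CD157-CD200- cells by limma's test of the difference itself, adjusted over 25065 features. For Notch4 the value was 1.48 on the log2 scale: 0.96 in the dye efflux sort, positive on 3 of 3 slides, and -0.52 in the antibody sort, positive on 0 of 3 slides. For Dll4 it was 1.85, from 1.90 (3 of 3 slides positive) and 0.05 (2 of 3 slides positive). For Jag1 it was -1.22, from 1.58 and 2.79, both positive on 3 of 3 slides. Notch4 and Dll4 stayed called without any 1 of the 15 arrays (adjusted p up to 0.031 for Notch4 and 0.0094 for Dll4), and Jag1 did so for 3 of the 15.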

How the results depend on the processing

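Of 1065 values of single members under 25 alternatives, 964 kept their direction and side of the threshold, 54 lost a call, 26 gained one and 21 changed sign. Dll4, Jag1, Jag2 and Hey1 for EC-SP minus EC-MP, and Jag1, Jag2 and Hey1 for both CD200+ subsets against CD157-CD200- cells, were called under every alternative run in which they were tested; Jag2 was not tested where a probe had to be well above background on every array. The count of members called for CD157+CD200+ minus CD157-CD200- was 5 with normexp (3630 features called) and 6 with the replicate block (29.3% of features). It was 3 in the main fit (3602 features, 15.2%). For CD157+CD200+ minus CD157-CD200+ it was 1 with normexp (371 features), with the mean of all tested probes (277 features) and with the replicate block (3.07% of features), each time Dll4. For the comparison of the 2 sorts it was 5 with the block (12.7% of features). The block also added the steps' calls of Notch4 and Dll1 and the F test's calls of Dll1 and Hes1. Normexp reduced the Jag2 differences to 1.69 to 2.61 where they were called against EC-MP or CD157-CD200- cells. Leaving out 1 array gave 4 to 4 members for EC-SP minus EC-MP, 3 to 4 for CD157+CD200+ minus CD157-CD200-, 0 to 0 for CD157+CD200+ minus CD157-CD200+, 3 to 6 for CD157-CD200+ minus CD157-CD200-, 3 to 5 in the F test, 2 to 4 for the step contrast and 2 to 3 for the comparison of the sorts; the low ends of the counts from 3 to 6, from 3 to 5 and from 2 to 4 came without CD157-CD200+ replicate 1, and that of 2 also without CD157-CD200+ replicate 2. The member added for CD157+CD200+ minus CD157-CD200- was Heyl or Dll1, Heyl only where it passed the filter through a CD200+ subset, in which it was higher. Over all features, in the same order, these leave-one-out fits called 2669 to 3298, 2647 to 3385, 101 to 253, 1986 to 2746, 2422 to 3015, 471 to 971 and 888 to 1211. With all arrays the numbers were 3966, 3602, 248, 2807, 3303, 990 and 1265. The numbers tested when 1 array was left out are not given here, so no shares stand beside those counts. Keeping probes without a symbol apart, an alternative chosen after seeing the data, ended the Hes1 call (5 members in place of 6) and no other.

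Signs changed only for small differences that were not called. With the array median, CD157+CD200+ minus CD157-CD200- became -0.0083 for Notch1 and -0.026 for Dll4. CD157+CD200+ minus CD157-CD200+ became 0.052 for Notch1 with the mean of its probes and -0.0046 for Jag2 in the deposited table. Notch2 for CD157-CD200+ minus CD157-CD200- became 0.033 with quantile normalization and 0.010 in the deposited table. Leaving out 1 array gave, for CD157+CD200+ minus CD157-CD200-, -0.12 to 0.25 for Notch1 and -0.025 to 0.14 for Dll4. For CD157+CD200+ minus CD157-CD200+ it gave -0.30 to 0.069 for Notch1, -0.36 to 0.27 for Dll1, -0.078 to 0.19 for Jag2, -0.29 to 0.043 for Hey1 and -0.035 to 0.17 for Hes1. It gave -0.55 to 0.050 for Notch1 in the step contrast, -0.016 to 0.36 for Notch1 and -0.10 to 1.01 for Jag2 in the comparison of the sorts, and -0.10 to 0.12 for Notch2 in CD157-CD200+ minus CD157-CD200- cells. The cause was not tested for any of these. Dim signal limits Hey2 and Heyl in all groups and Jag2 in EC-MP and CD157-CD200- cells.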

Other observations

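Over the 15 arrays, each sort centred on its own mean, Jag2 and Hey1 had a Pearson r of 0.98, Jag1 and Jag2 of 0.90, Jag1 and Hey1 of 0.88 and Notch4 and Dll4 of 0.80, while Hes1 and Jag1 had -0.85. These are descriptions of arrays that share groups and slides, with no test. Jag2 was well above background on 0 of 3 EC-MP arrays and 1 of 3 CD157-CD200- arrays, so its r values rest in part on background signals. Among 13620 genes with a symbol tested in both sorts, the patterns most like that of Jag2 were those of Sema7a (r of 0.985), Acss1 (0.983) and Ebf1 (0.981). Those most like Hey1 were Syt11 (0.979), Acss1 (0.979) and Dach1 (0.979), and those most like Jag1 were Atp2a3 (0.979), Fbn1 (0.975) and Cytl1 (0.971). For Dll4 the nearest were Fcgbp (0.953), Arrdc3 (0.952) and Ppp1r15b (0.947), and for Notch4 Cbfb (0.951), Phldb1 (0.942) and Ptbp3 (0.932). Dll1 was nearest to Slc12a4 (0.975), Trip6 (0.967) and Fzd6 (0.961), Hes1 to Tiam1 (0.956), Tgfbr3 (0.944) and Tbc1d22a (0.940), and Notch1 to Rrs1 (0.904) and Psip1 (0.899). The nearest genes of Hey2 and Heyl are not given, because these members were at background on most arrays.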
